A study of Mus musculus with 8 samples.

Results

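Gene deserts are long stretches of chromosome that hold no protein-coding gene. Here they were taken as autosomal 1 kb regions, tiled from the first base of each chromosome, whose nearest protein-coding gene in GENCODE M21 (build GRCm38, the mm10 of the files) was over 500 kb away. A region was measured where 3 or more of its CpGs had 5 or more reads in each of the 4 files. The rule used position and read depth and no methylation value. It gave 123920 desert regions among 1950708 measured autosomal regions (6.35%), in 251 deserts that spanned 210.8 Mb in all. A desert is an unbroken run of 1 kb regions over 500 kb away, measured or not. Its length therefore leaves out the 500 kb next to each flanking gene.

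The data were whole-genome bisulfite sequencing of spleen lymphocytes from C57BL/6J mice, an inbred strain, aged 6 to 8 weeks. The 8 samples fell into 4 groups of 2: resting CD43- B cells of females and of males, and naive CD4+ CD62L+ T cells of females and of males. No treatment or transgene is stated for any group, cells were pooled over several animals, and each group has 1 deposited file, so B and T cells were compared once in each sex with no replicate file within a group. Whether a file merges both samples of its group is not stated. Mean depth over the autosomes was 14.6 to 17.7 reads per CpG and file, and 12.8 to 14.8 reads in the desert regions. Promoters of 6 of 6 B cell marker genes were less methylated in B cells in both sexes, and those of 6 of 7 T cell marker genes were less methylated in T cells. The exception was Cd28, a costimulatory receptor, at 90.1% to 94.0% in all files. Of genes of other cells, Csf1r of macrophages, Klrb1c of natural killer cells and Hbb-bs of red cells stood at 78.7% or more in all files, and Cd8a of cytotoxic T cells at 89.5% and 90.3% in B cells and at 67% and 70.9% in T cells. Foxp3 of regulatory T cells, on the X chromosome, stood at 45.6% and 22.7% in B cells and at 43.2% and 15.2% in T cells.

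In mammalian cells most CpGs carry methylation on both strands. Stretches that lack it are mostly CpG-rich promoters, and shorter partial losses mark enhancers where transcription factors bind. Far from genes, such enhancers can act on a promoter over long distances, as around Myc, the proliferation factor, and Gata3, which directs T cell development. The variable segments of immunoglobulin and T cell receptor loci are annotated as segment types of their own and not as protein-coding genes. Large segment clusters therefore counted as deserts here, and the totals of low and of called regions are given with and without them.

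The regions that carry the results are shown first. All sequences are from the GRCm38 reference, plus strand, 5′ to 3′, and are the 300 bases of each region with the most CpGs counted in all 4 files. Capitals mark those CpGs. Where a pair of values is given for a cell type, females come first and males second. Reads of a stretch or region were summed over its CpGs, so a sequencing read counts at each CpG it covers. Limits given where no read was methylated treat these counts as independent, and are too tight where CpGs share reads. The first 3 regions were far more methylated in B cells than in T cells. At the 4 counted CpGs of the Tox stretch the level was 95.1% and 100% in B cells and 0.980% and 1.10% in T cells. The 7 CpGs of the Myc stretch stood at 81.6% and 85.5% in B cells and at 0.893% and 4.03% in T cells. In the Dab2 stretch none of 92 and 104 T cell reads was methylated, which allows up to 3.26% and 2.88%, while B cells stood at 87.3% and 91.5%. Each of its CpGs had 20 to 31 T cell reads per file. The same region held counted CpGs outside the stretch. That at 5777735 stood at 80% and 86.7% in T cells and at 100% in both B cell files. That at 5777651 stood at 0% and 10% in T cells and at 83.3% and 77.8% in B cells.
Tox desert, chr4:7534194-7534493: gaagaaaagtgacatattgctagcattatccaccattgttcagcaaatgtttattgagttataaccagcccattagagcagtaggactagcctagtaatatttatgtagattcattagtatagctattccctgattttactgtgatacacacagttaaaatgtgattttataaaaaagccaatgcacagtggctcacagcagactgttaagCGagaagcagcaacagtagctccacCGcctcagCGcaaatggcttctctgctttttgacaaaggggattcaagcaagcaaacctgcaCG
Myc desert, chr15:62825118-62825417: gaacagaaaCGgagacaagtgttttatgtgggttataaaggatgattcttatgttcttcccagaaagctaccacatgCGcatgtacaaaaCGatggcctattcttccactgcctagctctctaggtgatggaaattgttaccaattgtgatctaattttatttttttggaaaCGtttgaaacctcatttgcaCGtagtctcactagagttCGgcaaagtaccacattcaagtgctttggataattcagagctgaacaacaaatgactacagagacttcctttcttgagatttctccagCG
Dab2 desert, chr15:5777166-5777465: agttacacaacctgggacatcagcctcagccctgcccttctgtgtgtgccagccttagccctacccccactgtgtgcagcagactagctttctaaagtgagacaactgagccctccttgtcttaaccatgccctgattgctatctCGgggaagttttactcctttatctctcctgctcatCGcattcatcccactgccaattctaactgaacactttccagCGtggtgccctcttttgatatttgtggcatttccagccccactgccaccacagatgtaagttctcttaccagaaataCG

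The next 3 were less methylated in B cells. The Igkv19-93 stretch, around a variable segment of the kappa light chain, had 0 methylated of 34 and 38 reads in B cells, which allows up to 8.82% and 7.89%, and stood at 100% and 81.2% in T cells. The Zfp462 stretch stood at 3.7% and 0% in B cells and at 78.1% and 78.5% in T cells. The Ighv1-18 stretch, at a variable segment of the heavy chain, stood at 13.6% and 26.7% in B cells and at 95% and 97.9% in T cells over its 2 counted CpGs. A further reference CpG there was not counted in every file. The whole region, with the CpG at 114682140 at 75% and 40% in B cells, stood at 30% and 28.6% in B cells and at 96.1% and 96.5% in T cells.
Igkv19-93 in the kappa desert, chr6:68736630-68736929: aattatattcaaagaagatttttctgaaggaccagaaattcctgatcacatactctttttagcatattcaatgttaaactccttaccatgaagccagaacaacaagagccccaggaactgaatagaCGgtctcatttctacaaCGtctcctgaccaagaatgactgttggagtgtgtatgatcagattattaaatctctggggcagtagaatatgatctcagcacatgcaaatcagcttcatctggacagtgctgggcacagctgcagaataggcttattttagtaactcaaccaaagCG
Zfp462 desert, chr4:54406047-54406346: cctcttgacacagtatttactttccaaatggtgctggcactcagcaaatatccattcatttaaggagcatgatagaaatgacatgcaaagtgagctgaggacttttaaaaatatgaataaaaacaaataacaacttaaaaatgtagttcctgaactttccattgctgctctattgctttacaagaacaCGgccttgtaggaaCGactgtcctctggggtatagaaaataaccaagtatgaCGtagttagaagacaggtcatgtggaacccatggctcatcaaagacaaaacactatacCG
Ighv1-18 in the heavy-chain desert, chr12:114682377-114682676: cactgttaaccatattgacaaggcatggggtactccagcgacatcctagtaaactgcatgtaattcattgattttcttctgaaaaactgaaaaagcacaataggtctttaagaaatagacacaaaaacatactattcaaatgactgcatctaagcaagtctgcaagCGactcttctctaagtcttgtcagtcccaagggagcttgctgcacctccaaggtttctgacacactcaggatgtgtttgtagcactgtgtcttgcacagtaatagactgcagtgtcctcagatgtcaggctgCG

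The last pair was almost unmethylated in all 4 files. In the Abca13 stretch female B cells stood at 2.74% and the other files had no methylated read over 63 to 73 reads. In the Rnf144a and Id2 stretch, 6 CpGs lay in 300 bases, female B cells stood at 1.89% and the other files had no methylated read over 82 or 83 reads.
Abca13 desert, chr11:10276257-10276556: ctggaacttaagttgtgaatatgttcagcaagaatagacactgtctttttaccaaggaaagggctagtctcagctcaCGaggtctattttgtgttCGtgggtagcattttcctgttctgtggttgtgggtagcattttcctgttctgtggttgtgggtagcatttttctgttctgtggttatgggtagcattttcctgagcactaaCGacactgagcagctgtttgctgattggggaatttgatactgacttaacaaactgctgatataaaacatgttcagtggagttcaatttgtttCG
Rnf144a and Id2 desert, chr12:25703001-25703300: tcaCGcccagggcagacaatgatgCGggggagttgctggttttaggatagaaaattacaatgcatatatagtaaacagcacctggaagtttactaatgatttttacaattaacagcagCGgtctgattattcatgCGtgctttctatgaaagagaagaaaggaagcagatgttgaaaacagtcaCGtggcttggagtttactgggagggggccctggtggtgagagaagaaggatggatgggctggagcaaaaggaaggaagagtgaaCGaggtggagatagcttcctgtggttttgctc

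Deserts were highly methylated in both cell types. Over all reads, 87.6% were methylated in female B cells, 87.5% in male B cells, 87.5% in female T cells and 87.3% in male T cells. The autosomal levels in the same order were 80.4%, 79.5%, 79.3% and 79.4%. Each file was thus higher in deserts, by 7.82 ± 0.455 points (SD, 4 files), and the ranges of desert and autosomal levels did not overlap (exact sign-flip permutation test, two-sided p = 0.125, the smallest that 4 files allow). The size of this difference depended on how regions were weighted. When each region counted once, desert regions averaged 86.8%, 86.7%, 86.7% and 86.4% in female B, male B, female T and male T cells, 0.588 ± 0.0575 points above the autosomal mean. Against the rest of the autosomes weighted to the same number of CpGs per region, the difference turned to -0.532 ± 0.0441 points. Both had the same p of 0.125 in that test.

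Desert regions also varied less in level. The SD of region levels was 8.38 points over desert regions and 16.2 points over the rest. The median region stood at 88.5% in deserts and 91.1% elsewhere, and 5% of regions lay under 71.3% in deserts and under 54.8% elsewhere. Between 80.4% and 81.2% of desert regions stood over 80% in a given file. The intermediate class, above 50% and up to 80%, held 18.1% to 18.9% of desert regions and 13.1% to 13.6% of the rest. Levels of 20% or less were found in 79 to 97 desert regions per file.

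**Figure D1:**
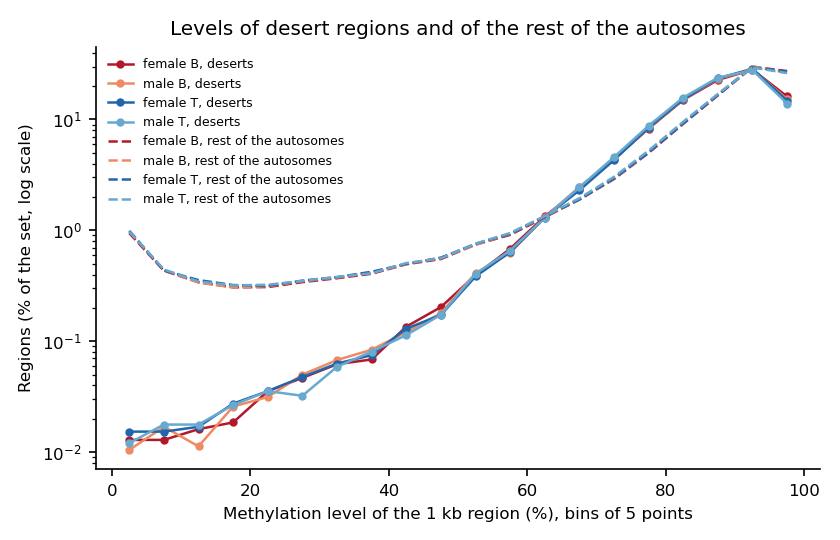
Share of 1 kb regions (log scale) in bins of 5 points of methylation level, for desert regions (solid lines with points) and the rest of the autosomes (dashed), 1 line per file. The 4 desert lines run together over most levels and lack the rise near 0% of the rest, where 2.03% to 2.11% of regions stood at 20% or less, against 0.0638% to 0.0783% in deserts.

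Deserts were poor in CpGs, with 5.04 per kb of known sequence against 8.51 over the autosomes, and 42.4% of their bases were repeat-masked. The CpG number of a region ordered its level differently inside and outside deserts. Desert regions with 3 CpGs averaged 85.3%, those with 7 to 9 averaged 87.9% and those with 20 or more averaged 91.7%. In the rest of the autosomes the same classes averaged 87.0%, 88.0% and 64.4%. Among regions of 20 or more CpGs, 0.639% were low in all 4 files in deserts (11 of 1721) and 23.6% elsewhere. The CpG-rich desert regions were 73.5% repeat-masked on average and those of the rest 20.2%, and the part of repeats in the levels was not tested.

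**Figure D2:**
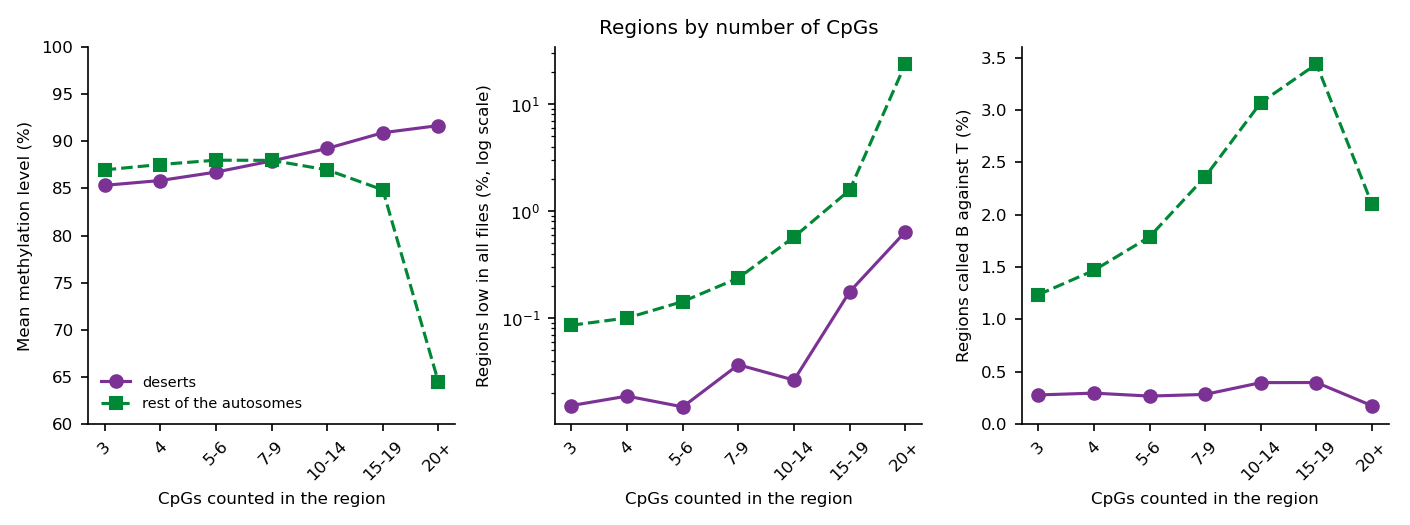
Mean level, share of regions low in all files (log scale) and share called between B and T cells, by number of counted CpGs per region, for deserts and the rest of the autosomes. The mean level rises with CpG number in deserts, from 85.3% to 91.7%, and drops to 64.4% in the rest. The share called lies between 0.174% and 0.396% in deserts and between 1.24% and 3.44% in the rest.

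With growing distance from genes, low and differing regions both became rarer in steps. From regions in genes to those beyond 1000 kb, median CpGs per region also fell from 8 to 4 and median reads from 131 to 58.5. The part of CpG number and depth in these steps was not tested. Regions low in all files were 2.72% of those that overlapped a protein-coding gene, 0.396% at 50 to 100 kb, 0.0717% at 250 to 500 kb, 0.0381% at 500 to 1000 kb and 0.0161% beyond 1000 kb. Just inside and outside the limit, 67 of 15193 regions were called in the 50 kb beyond it (0.441%) and 86 of 17945 in the 50 kb before it (0.479%). Low regions numbered 4 (0.0263%) and 10 (0.0557%), and mean levels were 86.7% and 86.9%.

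**Figure D3:**
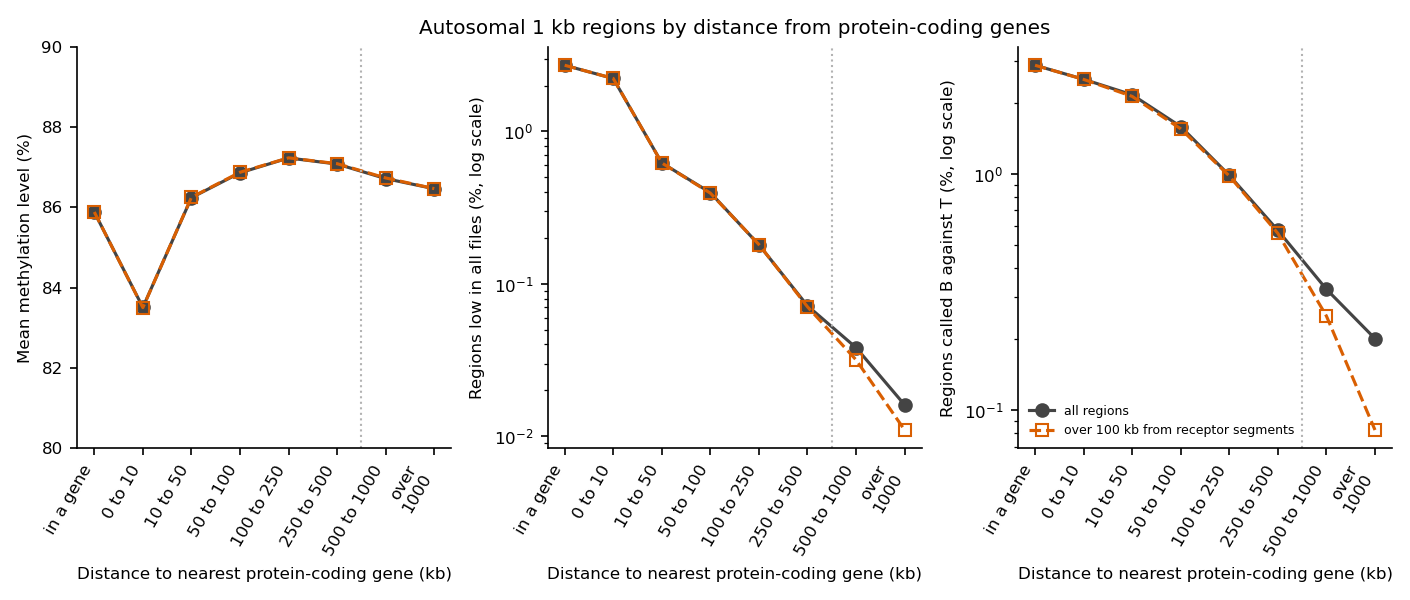
Mean methylation level, share of regions low in all files and share called between B and T cells (both on log scales), by distance to the nearest protein-coding gene. Squares leave out regions within 100 kb of receptor segments, and the dotted line marks 500 kb. The share called falls from 2.88% in genes to 0.201% beyond 1000 kb, and to 0.0824% without the receptor segments.

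Deserts also differed among themselves. Over the 201 deserts with 100 or more measured regions, mean levels ran from 81.7% to 92.7% with an SD of 1.96 points, and all 201 stood at 80% or more. The lowest was the 1.205 Mb desert between Snrpn and Ndn (chr7:60641001-61846000), in a domain known for imprinting. It stood at 81.5% and 81.4% in B cells and at 82.0% and 81.7% in T cells over 650 regions. No region was called there, as in 180 of the 251 deserts, beside 0.287% of all desert regions and 2.12% of autosomal regions. The highest was a 0.260 Mb desert between Pdcd1, the inhibitory receptor PD-1, and Fam174a (chr1:94553001-94813000), at 92.9% and 93.5% in B cells and 92.6% and 91.8% in T cells. The 4 files of the first desert lay below those of the second without overlap. Both were picked for their means, so this is a description.

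The 5 longest deserts lay near the mean. They were the deserts between Tenm3 and Aga (3.667 Mb, chr8:49344001-53011000), Pcdh20 and Pcdh9 (3.541 Mb, chr14:88972001-92513000), Celf4 and Pik3c3 (3.517 Mb, chr18:26255001-29772000), Olfm4 and Pcdh17 (3.419 Mb, chr14:80524001-83943000) and Cntnap5b and Cdh20 (3.282 Mb, chr1:100986001-104268000). Tenm3, the protocadherins and Cdh20 encode adhesion proteins of neurons. Their mean levels lay between 85.5% and 86.5%. Of 1863 to 2329 measured regions in each, 0 to 2 were called and 0 to 2 were low in all files. Over all desert regions these shares were 0.287% and 0.0315%, and over the autosomes 2.12% and 1.59%.

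Only 39 desert regions (0.0315%, 95% Wilson interval 0.0230% to 0.0430% for counting error) were at 20% or less in all 4 files, beside 1.59% of autosomal regions and 0.507% of the rest weighted to the CpG number of deserts. Without regions within 100 kb of a receptor segment, 31 of 121589 were so low (0.0255%). The 39 were chosen by their levels, so the following is a description. They formed 36 clusters in 27 deserts, held a median of 9 CpGs and were 17.6% repeat-masked, beside 5 CpGs and 43.0% in all desert regions. An annotated gene of another kind overlapped 11 of the 39, and 28 overlapped none.

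Of the 39, 11 held 20 or more CpGs, and some of these lay in long non-coding genes. A pair of adjoining regions at C130073E24Rik, a lincRNA in the Tenm3 to Aga desert, lay 2071 kb from the nearest protein-coding gene and held 37 and 44 CpGs. The first (chr8:50915001-50916000) stood at 5.81%, 5.84%, 5.38% and 5.93% in female B, male B, female T and male T cells over 723 to 894 reads. Rmst, a lincRNA known from neural differentiation, covered a region of 32 CpGs (chr10:92162001-92163000) that stood at 3.83%, 6.05%, 4.16% and 4.58%. All 4 files were low and close to one another at both. The low regions with the most CpGs, 50, 86 and 67, lay on chromosome 12 (chr12:19387001-19388000, chr12:22906001-22907000 and chr12:23010001-23011000), and stood higher, at 12.8% to 17.0% in all files. Desert regions that hold the start of a lincRNA gene, away from receptor segments, averaged 82.5% over 179 regions, with 4 low in all files. Among the 17 of them with 20 or more CpGs the mean was 61.9% and 4 were low, whereas 1649 regions as CpG-rich without such a start averaged 92.0% and 6 were low.

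Other low regions overlapped no annotated gene or held few CpGs. The Abca13 region (chr11:10276001-10277000), with 7 CpGs, stood at 3.33%, 1.98%, 0.885% and 2.88% in female B, male B, female T and male T cells, while its neighbouring regions averaged 87.5% in B cells and 87.8% in T cells. A region of 4 CpGs in the Mef2c desert (chr13:82899001-82900000) stood at 4.35%, 0%, 0% and 6.67% over 38 to 75 reads beside a neighbour at 95.7% and 97.1%. The low stretch was wider at Rnf144a and Id2 (chr12:25702001-25704000), where adjoining regions of 23 and 9 CpGs were both low, and in the Zfp608 desert on chromosome 18, where a low region of 16 CpGs (chr18:55549001-55550000) adjoined one of 8. The region on the other side of that of 16 CpGs was called between B and T cells. A region in the lincRNA Gm47777 lay 725 kb from Ets1, a transcription factor of lymphocytes (chr9:33483001-33484000). It stood at 1.11% and 0.990% in B cells and at 4.69% and 4.70% in T cells, a difference that did not pass the test (adjusted p = 0.349, quasi-binomial model with limma's squeezed dispersion).

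On average B and T cells did not differ in deserts beyond the spread between files. B minus T, as the mean over regions, came to 0.0778 points for females and 0.243 points for males, beside 0.181 and 0.147 points over the autosomes (exact permutation test of 2 against 2 files, two-sided p = 0.667, where 0.333 is the smallest possible). The difference between the sexes within a cell type was as large, at 0.0915 points for B and 0.256 points for T cells. Single deserts departed further. Of the 201 larger deserts, 86 were above 0 in both sexes and 44 below 0 in both.

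Region by region, 356 of 123920 desert regions (0.287%) differed between B and T cells at an adjusted p under 0.05 and 20 points or more. Over all autosomal regions the same rule called 2.12%, and in the rest weighted to the CpG number of deserts it called 1.76%. B cells were higher in 197 (0.159% of desert regions, beside 1.19% over the autosomes) and lower in 159 (0.128%, beside 0.934%). Each call had the same sign in both sexes, which selection by the mean difference over both sexes largely fixes. The calls formed 301 clusters, 260 of them a single region. They lay in 71 of the 251 deserts. The count depended on the test, with 210 calls by Fisher's exact test within each sex, 152 by limma on log2 ratios and 98 with a dispersion prior from all regions, and in each the desert share was below the autosomal one (0.169% against 1.79%, 0.123% against 1.05% and 0.0791% against 1.19%). Depth was lower in deserts, with a median of 61 reads per region and file against 109 over the autosomes, and its part in the lower share was not tested. At equal CpG number the share was lower in deserts in each of the 7 classes, for instance 0.295% against 1.47% with 4 CpGs.

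Most called regions were highly methylated in one cell type and partly methylated in the other. Where B cells were higher, B cells averaged 84.3% and 84.2%, and T cells 49.9% and 49.6%. Where they were lower, the means were 51.4% and 50.7% for B cells and 84.2% and 85.3% for T cells. The median size of the difference was 30.3 and 30.2 points in these sets, and 44 regions differed by 50 points or more. Regions at 20% or less in both T cell files and at 60% or more in both B cell files numbered 10 (0.00807%, beside 0.0562% over the autosomes), and the reverse 2 (0.00161%, beside 0.0287%).

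The largest difference lay 542 kb from Tox, a regulator of T cell development (chr4:7534001-7535000, 5 CpGs, no annotated gene). It stood at 95.7% and 98.9% in B cells and at 0.917% and 1.90% in T cells (95% Wilson intervals from 89.3% to 99.8% in B cells and from 0.162% to 6.68% in T cells, adjusted p = 2.03e-76). Each of its 5 CpGs was at 85.7% or more in B cells and at 7.14% or less in T cells. The only measured neighbour stood at 86.5% in B cells and 100% in T cells. In none of the 8 highest-ranked regions in this direction did a B cell file overlap a T cell file, which their choice by size of difference all but fixes.

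Near Myc, a region 835 kb from the gene (chr15:62825001-62826000) stood at 81.6% and 85.5% in B cells and at 0.893% and 4.03% in T cells (adjusted p = 1.36e-60). At the far end of the same desert, on the side of Gsdmc, a region in the lincRNAs Gm41335 and Gm49014 (chr15:63271001-63272000) stood at 97.4% and 90.9% in B cells and at 16.1% and 14.3% in T cells. A region 656 kb from Gata3 (chr2:9200001-9201000) stood at 87.2% and 86.4% in B cells and at 15.3% and 13.1% in T cells. The remaining high-ranked regions lay near Dab2, an endocytic adaptor (chr15:5777001-5778000, B cells at 88.5% and 91.1%, T cells at 10.0% and 10.9%), near Sall3, near Klf4 and among T cell receptor alpha segments. In the last, chr14:53351001-53352000, no T cell read of 26 and 36 was methylated, which allows up to 11.5% and 8.33%, and B cells stood at 75.9% and 67.7%.

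**Figure D4:**
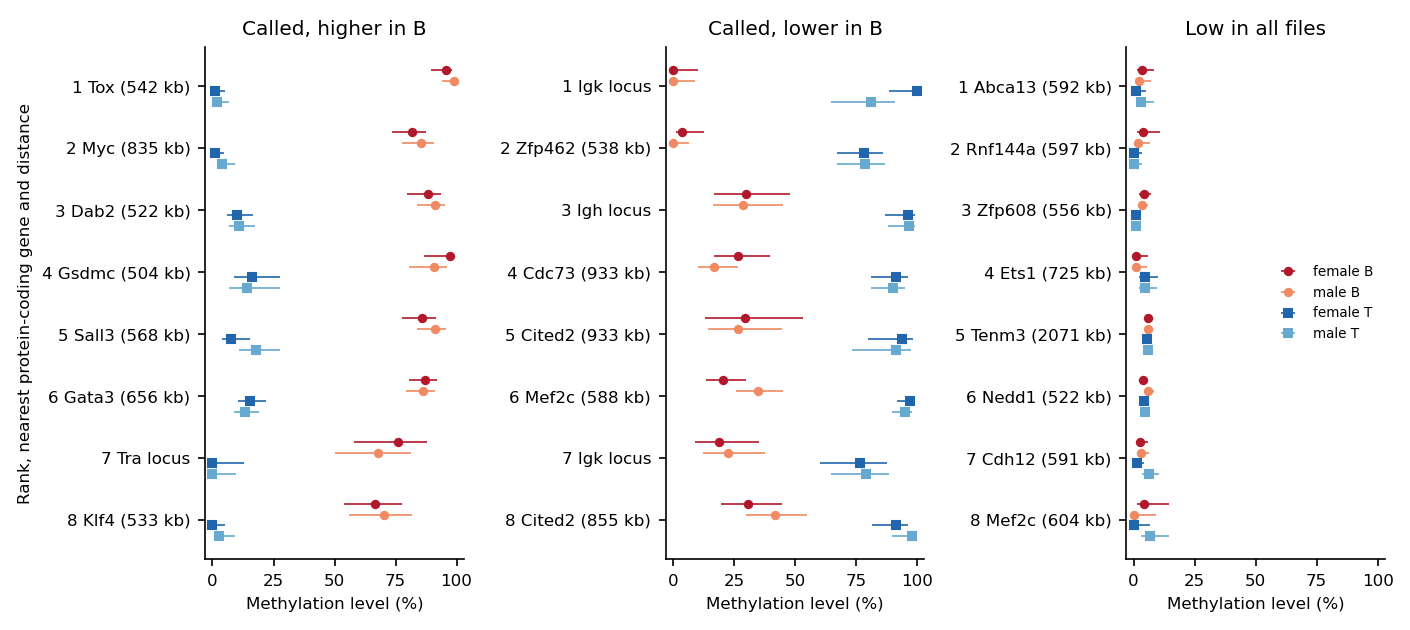
Methylation level of the 8 highest-ranked regions called higher in B, called lower in B and low in all files, with 95% Wilson intervals for counting error, by nearest protein-coding gene and distance, or by locus in the receptor deserts. In each called region both B cell points (circles) lie apart from both T cell points (squares), and in the low regions all 4 points lie at 6.67% or less.

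In the other direction, the region with the largest difference outside the receptor loci lay 538 kb from Zfp462, a zinc finger protein (chr4:54406001-54407000). It stood at 3.7% and 0% in B cells and at 78.1% and 78.5% in T cells over 54 to 73 reads (adjusted p = 1.80e-28). A region 588 kb from Mef2c, a transcription factor used by B cells (chr13:82915001-82916000), stood at 20.5% and 34.8% in B cells and at 97% and 95.1% in T cells. The region low in all files described above lay in the same desert. Near Cdc73 (chr1:142665001-142666000) the levels were 26.8% and 16.9% in B cells and 91.2% and 90.1% in T cells. The 2 regions near Cited2 (chr10:16789001-16790000 and chr10:16867001-16868000) stood at 26.7% to 41.8% in B cells and at 91.3% to 98.1% in T cells, the first over as few as 17 reads. The kappa and heavy-chain regions shown above, and a second kappa region (chr6:68926001-68927000), completed the 8. These 8 were chosen by size of difference too, and no B cell file overlapped a T cell file in them.

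The 3 deserts at receptor loci held 113 of the 356 calls in 2331 regions (4.85%, beside 2.12% over the autosomes). Outside deserts, 243 of 3404 regions within 100 kb of a receptor segment were called (7.14%). In the kappa locus 45 of 1279 regions were lower in B cells and 5 higher. In the heavy-chain locus 26 of 720 were lower in B cells and 4 higher. In the alpha locus of the T cell receptor 32 of 332 were higher in B cells and 1 lower, so most calls were lower in the cell type that rearranges the locus. Of 239 desert regions that overlapped a segment, 50 were called (20.9%). Depth moved with cell type at these loci. Over all deserts it was 12.8 and 13.8 reads per CpG in B cells and 14.8 and 14.7 in T cells. At the loci it was 10.2 and 11.1 reads per CpG in B cells and 16.7 and 16.3 in T cells at the heavy chain, 11.9 and 13.1 against 15.4 and 15.2 at kappa, and 13.6 and 14.8 against 11.6 and 11.3 at alpha. Recombination can remove segments from the chromosomes of the cells that use a locus. Its part in the levels was not tested. Without regions within 100 kb of a segment, 243 of 121589 regions were called (0.200%), 156 higher and 87 lower in B cells.

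Outside the receptor loci, the 243 calls lay in 68 deserts. The desert between Myc and Gsdmc (chr15:62491001-63275000) held 25 calls in 550 regions, 24 of them higher in B cells (4.55%, beside 2.12% over the autosomes). A cluster of 4 called regions lay there at chr15:62727001-62739000. The desert between Vrk1 and 3110018I06Rik (chr12:106578001-106988000) held 12 in 396 regions (3.03%), all higher in B cells. It ends 922 kb from Bcl11b, a T cell transcription factor that was not the nearest gene. Between Tox and Car8 (chr4:7492001-7643000) 9 of 102 regions were called (8.82%), all higher in B cells. Between Celf2 and Gata3 (chr2:8010001-9357000) 9 of 949 regions were higher in B cells and 1 lower (1.05%). Other deserts held 11 calls each, with 10 higher in B cells and 1 lower between Sall3 and Galr1 (2.84% of regions), 6 and 5 between Zfp608 and Gramd3 (3.17%), and 5 and 6 between Sel1l and Flrt2 (0.601%). Calls of both directions thus also occurred within 1 desert, as between Nmbr and Cited2 (4 higher, 5 lower) and between Zeb2 and Acvr2a (5 higher, 4 lower).

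A list of 20 genes of lymphocyte development, chosen with earlier results known, was counted by nearest gene. Of the list, 7 were the nearest gene of any desert region, with 2214 regions in all. Of these, 43 were called (1.94%, beside 2.12% over the autosomes and 0.168% in the other deserts away from receptor loci), 35 higher and 8 lower in B cells. By gene, the regions higher and lower in B cells were 15 and 1 of 282 for Myc, 9 and 1 of 502 for Gata3, 4 and 0 of 51 for Tox, 4 and 3 of 843 for Zeb2, 2 and 3 of 209 for Mef2c and 1 and 0 of 81 for Id2. None of 246 regions nearest to Ets1 was called. Zeb2 is a transcriptional repressor that acts in lymphocytes and other cells, and Id2 an inhibitor of E proteins. The share over the list stood near the autosomal background.

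In some deserts the mean over regions had the opposite sign to most of the calls. In the Vrk1 desert all 12 calls were higher in B cells, yet the mean over its 396 regions was lower in B cells, with a B minus T of -2.25 points in females and -2.01 in males. Median levels there were 88.6% and 87.7% in B cells and 92.2% and 91.9% in T cells. In the Gata3 desert, with 9 of 10 calls higher in B cells, the mean was -1.41 and -1.19 points. The kappa desert was the reverse, with 45 of 50 calls lower in B cells and a mean of 1.33 and 1.04 points. In the Tox and Myc deserts, where 9 of 9 and 24 of 25 calls were higher in B cells, the means were 4.18 and 5.40 points and 1.38 and 1.63 points. The median region, which a few called regions move little, had a B minus T of -3.23 points in the Vrk1 desert, -1.63 in the Gata3 desert and 2.43 in the kappa desert, but of 0.457 in the Tox desert and -0.0570 in the Myc desert. Of the 201 larger deserts, the Tox desert had the highest mean B minus T, followed by the T cell receptor alpha desert at 4.77 and 4.07 points. The heavy-chain desert had the lowest, at -2.62 and -2.50 points. The medians of the alpha and heavy-chain deserts were 0.965 and -1.23 points, closer to 0 than the means.

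**Figure D5:**
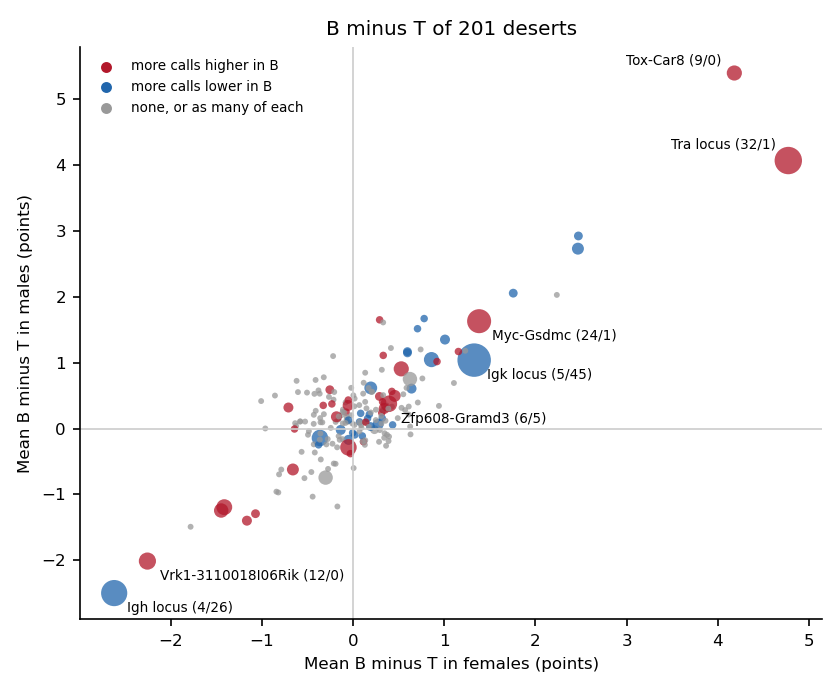
Mean B minus T over regions in females (horizontal) and males (vertical) for the 201 deserts with 100 or more regions, in points. Area grows with the number of called regions, colour gives the more frequent direction of the calls, and brackets give calls higher and lower in B cells. The Vrk1 desert lies below 0 on both axes with 12 calls higher in B, and the kappa desert (Igk locus) above 0 with 45 of 50 calls lower.

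Annotated genes other than protein-coding ones overlapped 10001 desert regions, of which 239 overlapped a receptor segment. Away from receptor segments, 40 of 9696 regions that overlapped a gene were called (0.413%) and 203 of 111893 that overlapped none (0.181%). Of the 7886 regions in lincRNA genes, 28 were higher and 7 lower in B cells (0.444% called). Of 670 in other non-coding genes, 2 were higher and 4 lower (0.896%), and of 1251 in pseudogenes 0 were called, beside 0.200% of all desert regions away from receptor segments. Over 1251 regions a count of 0 does not set pseudogenes apart from that share. Repeats held fewer departures. Of the 42755 regions with at least 50% of bases masked, 0.171% were called and 0 were low in all files, beside 0.349% and 0.0481% of the others. A count of 0 in 42755 allows a share of up to 0.00702%.

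Sequence motifs of lymphocyte factors were counted in the 1 kb regions, on both strands and away from receptor segments. The searched letters were TGTGGTT for RUNX factors, CAGCTG for E2A, CTTTGAA for TCF/LEF factors, TGANTCA for AP-1, GAGGAAGT for PU.1 and CCGGAAG for ETS factors with a CpG, and the core consensus of CTCF was searched by its letters with ambiguity. PU.1 is itself an ETS factor, and both of these share the letters GGAAG. RUNX letters were in 33.3% of regions higher in B cells (52 of 156), 20.7% of those lower (18 of 87), 35.5% of low regions (11 of 31) and 18.9% of all desert regions. TCF/LEF letters were in 40.4%, 39.1%, 19.4% and 25.6% in the same order. E2A letters were in 31.4%, 21.8%, 48.4% and 22.6%, and AP-1 letters in 32.1%, 35.6%, 29.0% and 26.4%. PU.1 letters were in 5.13%, 5.75%, 19.4% and 4.83%, and ETS letters in 2.56%, 2.30%, 9.68% and 1.78%. The CTCF consensus was in 0 of 156, 0 of 87, 1 of 31 and 0.137%. The sets differ in CpG number and base composition, no test was made, and a match is a description of letters only.

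Between females and males 1 desert region was called, beside 0.00103% of autosomal regions (20). It lay 753 kb from Adgrl2, an adhesion receptor (chr3:149744001-149745000, 8 CpGs), and stood at 94.2% and 93.6% in female B and T cells and at 62.4% and 62.6% in male B and T cells (adjusted p = 2.69e-07). With 1 pooled file per sex and cell type, sex cannot be told apart from the animals that were pooled. Depth was higher there in males, with 125 and 171 reads in B and T cells of males against 69 and 94 in those of females, and its part in the difference was not tested. The call was not made by limma on log2 ratios or with a dispersion prior from all regions, which called 0 autosomal regions. At 10 reads per CpG no desert region was called, and whether this region still held the 3 CpGs needed was not checked. Of its 16 reference CpGs 8 were counted, and 40% of its bases were repeat-masked. At an unadjusted p under 0.05 the sex term passed in 4873 desert regions (3.93%, beside 4.72% over the autosomes), and the cell type term in 6384 (5.15%, beside 12.6%).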

How the data were processed

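Bisulfite libraries were trimmed with Trim Galore, inspected with FastQC and aligned with Bismark 0.13.1 to mm10, per the submitters' processing notes. The deposited files give, for each CpG with both strands merged, the methylated fraction to 3 decimals and the read count. Every entry had at least 5 reads, and methylated counts were recovered as fraction times reads. Bisulfite reads 5mC and 5hmC alike. Part of each sample was also oxidized, which was not used here, nor were conversion controls.

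Reads were summed over the CpGs of each 1 kb region in Python 3.11.15, so a read that covers several CpGs counts at each. Each of 2018320 regions (autosomes and X) was fitted with a quasi-binomial model of cell type and sex. This left 1 residual degree of freedom. Dispersions were squeezed with limma 3.58.1 (R 4.3.3), with a prior from the 1190076 regions with at least 5 expected reads of each kind, a choice also made with earlier results known. The prior had infinite degrees of freedom, so p-values rest on the average spread and very small ones overstate certainty for a single region. P-values were Benjamini-Hochberg adjusted, for sex over 1950708 autosomal regions. Calls needed an adjusted p under 0.05 with 20 points of mean difference, and a region was low at 20% or less in every file. Named were the 8 clusters (within 5 kb) per direction with the largest smaller-sex difference, the 8 lowest in all files, all sex calls, the 5 longest deserts and those with extreme means. The list of flanking genes counted the nearest gene. Wilson intervals and limits from a count of 0 (3 counts) cover counting error only, as reads are not independent molecules. They are also too narrow where CpGs share reads. The members and lists were chosen with earlier results of these data known. Alternatives covered distance, depth, CpG number, region length, thresholds and tests. The removal of receptor regions and the test of cell type by sex were chosen after seeing the data.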

Additional observations from a re-analysis of the deposited data

Results flagged for a closer look

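In 2 of 123920 desert regions, beside 133 of 1950708 autosomal regions, the B minus T difference itself differed between the sexes, by a test of cell type by sex that was added after seeing the data (quasi-binomial model, Benjamini-Hochberg adjusted). At chr12:48559001-48560000, in the pseudogene Gm1818, levels were 64.3% in female and 83.9% in male B cells, and 91.1% in female and 81.1% in male T cells, over 143 to 293 reads. Females had a B minus T of -26.8 points and males of 2.75, a difference of -29.5 points (adjusted p = 0.0182), and 73.6% of the bases were repeat-masked. At chr15:46660001-46661000, 920 kb from Csmd3, only 3 CpGs were counted. Levels there were 50% in female and 100% in male B cells, and 100% in female and 81.0% in male T cells, over 30 to 42 reads. Females had a B minus T of -50 points and males of 19, a difference of -69.0 points (adjusted p = 0.00874). With 1 file per group this test has no residual degree of freedom of its own and rests on the average spread of all regions.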

How the results depend on the processing

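The desert level lay above the autosomal level under 12 of 13 alternatives, by 0.588 points (mean of region levels) to 9.24 points (10 reads per CpG), and by 7.69 to 8.04 points with 1 file left out. The alternatives for distance, depth, CpG number, left-out files and receptor regions kept the weighting by reads, so they do not bear on that weighting. With the mean of CpG levels the difference was 7.11 points. It reversed to -0.532 points for region levels against the rest weighted to the CpG number of deserts. The share of regions low in all files was 0.0331% to 0.0363% with 1 file left out. It was 0.0528% beyond 250 kb, 0.0161% beyond 1000 kb, 0% of 356 regions by distance from any gene, 0.0833% at 10 reads, 0.0450% at 5 CpGs, 0.0121% at a level of 10%, 0.0686% at 30% and 0.0516% by the mean of 4 files. Mean B minus T kept its direction under 12 alternatives, between 0.0320 and 0.445 points. Called regions numbered 322 to 353 with 1 file left out. They numbered 1159 beyond 250 kb, 75 beyond 1000 kb, 0 by distance from any gene, 715 at 10 points, 182 at 30 points, 152 by limma on log2 ratios, 98 with a prior from all regions, 210 by Fisher's exact test, 199 at 10 reads, 186 at 5 CpGs and 189 in 2 kb regions. In each of these the desert share lay below the autosomal share. The number of tested regions changed with some settings. At 10 reads 0.353% of 56399 desert regions were called (2.62% over the autosomes). At 5 CpGs it was 0.289% of 64389 (2.40%), and in 2 kb regions 0.207% of 91352 (1.45%). Beyond 250 kb and 1000 kb the shares were 0.440% and 0.201%. B cells were higher in 55.3% of calls, 67.3% with the prior from all regions, 22.7% beyond 1000 kb and 64.2% without receptor regions. Beyond 1000 kb and without receptor regions, 13 calls were higher and 17 lower. Sex calls numbered 3 beyond 250 kb, 2 at 10 points (beside 221 over the autosomes), and 0 beyond 1000 kb, by limma, with the prior from all regions and at 10 reads. The causes were not tested.

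No paired analysis was possible because the groups share no replicate numbers and each has 1 file. Sex was a term of the model, and Fisher's test was made within each sex. Desert regions had a median of 61 reads per file and called regions as few as 17.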
